A study of Homo sapiens with 12 samples.

Results

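The transcriptional response of HEK293 cells to an iron salt alone was described from 6 of the 12 libraries of a poly-A RNA sequencing series: the 3 labelled FAC (ferric ammonium citrate, an iron salt) and the 3 labelled Control, whose treatment is given as vehicle. The libraries were chosen by these labels alone. HEK293 is an established human embryonic kidney cell line, and no genotype, transgene or selection is recorded for any library. The other 6 libraries came from cells given oleic acid, a monounsaturated fatty acid, or oleic acid + FAC, and the series' title concerns ferroptosis, a form of cell death in which iron drives the peroxidation of lipids, and how oleic acid counters it. The sources used here do not give a dose or a duration. Iron cannot be told apart from the ammonium and citrate of the salt, since every cell given iron also received both. Nor is it recorded whether the 3 replicates of a group were separate cultures, so the p-values below cover library-to-library spread, which may be technical.

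Cells sense iron largely after transcription: when it is plentiful, iron regulatory proteins leave the hairpins called iron-responsive elements, mRNA for the transferrin receptor is cut, and ferritin mRNA is translated. Iron is also a cofactor of the 2-oxoglutarate dioxygenases, which hydroxylate proteins, RNA and DNA. Splicing is governed in part by SR proteins, whose activity depends on phosphorylation by CLK and SRPK kinases, and both families limit their own mRNA through transcripts that carry a premature stop or keep an intron.

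The 6 libraries held 15054800 to 17727219 estimated counts. A count of 0 in one of them allows up to 3 counts, or 0.158 to 0.195 CPM, for counting error only; CPM are counts scaled to a common library total, with library sizes adjusted by the trimmed mean of M values. All 12 libraries entered 1 fit, so that the spread of a gene was estimated from every group. The third library of the oleic acid group and that of the oleic acid + FAC group stood apart from the rest by transcript length. In the comparison of FAC with vehicle they entered that spread, the choice of genes to test and the scaling of libraries. They had no part in the means compared. Across genes, log2 transcript length correlated with a library's deviation from its group at -0.226 in the first vehicle, 0.238 in the second FAC and -0.227 in the third FAC library. Removing this trend is among the alternatives. Mitochondrially encoded mRNAs took 4.32% to 6.32% of counts in vehicle and 3.36% to 6.87% in FAC.

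FAC changed 169 of 14209 genes tested, with 65 rising and 104 falling at an adjusted p under 0.05 (edgeR's quasi-likelihood test with Benjamini-Hochberg adjustment). That is 1.19% of the genes tested, 0.457% higher and 0.732% lower. Most changes were modest: the median fold was 1.80 among genes that rose and 1.69 among genes that fell, and 26 and 23 of them reached 2-fold. In all 169 the 3 vehicle and 3 FAC values did not overlap. Over all genes tested, 10% stood higher without overlap and 12.4% lower, so that a lack of overlap is common here. The median log2 fold change over all genes was 0.01.

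The genes that fell started from somewhat higher levels, with a median of 34.9 CPM in vehicle against 19.4 CPM for those that rose and 25 CPM for all genes. Median transcript length was close in the 3 sets, at 2944, 3000 and 2806 bases. Protein-coding genes made up 160 of the 169. The lists of pathways, families and cell markers held 48 of the 169 genes, and 121 were in none of them. The count of 169 depends on the fit: these 6 libraries alone gave 351, removing the third library of both oleic acid groups gave 672, and leaving out 1 of the 6 compared libraries gave 27 (without the third vehicle library) to 79 (without the first). Of the 169 genes, 23 passed in all 6 of those last fits and 80 in none.

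**Figure D1:**
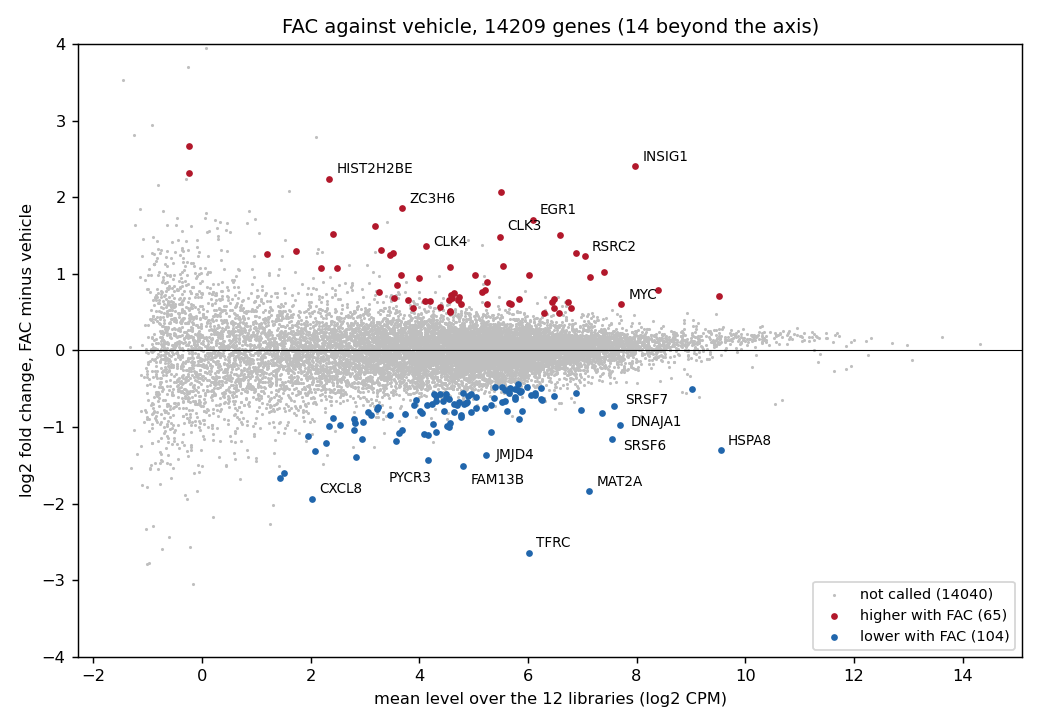
Each point is 1 of 14209 genes, with its mean level over the 12 libraries in log2 CPM on the x axis and the log2 fold change of FAC minus vehicle on the y axis. The 65 genes that rose are red and the 104 that fell are blue, with TFRC lowest and INSIG1 highest among the labelled genes; 14 genes lie beyond the axis.

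Among the kinases of splicing factors, CLK3 and CLK4 rose and none fell. CLK3, a dual-specificity kinase of SR proteins (chromosome 15, 74598500 to 74645414, GRCh38), measured 23.2, 24.3 and 23.6 CPM in vehicle and 61.8, 74.6 and 61.4 CPM in FAC. Every FAC library was above every vehicle library, and the vehicle libraries lay close together. The log2 fold change was 1.48 (SE 0.12, adjusted p = 1.79e-04, edgeR).

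CLK4, a close relative, measured 8.59, 9.78 and 11.1 CPM in vehicle and 24.7, 28.1 and 22.98 CPM in FAC. The groups were again separate, and the change was 1.36 on the log2 scale (SE 0.14, adjusted p = 6.76e-04). CLK1 stood at 14.5, 20.3 and 20.05 against 29.3, 37.6 and 25.1 CPM without overlap and missed the threshold (0.75, SE 0.17, adjusted p = 0.0544). Of the 14 kinases tested, 2 passed, against 0.457% of all genes, and the median log2 fold change was 0.13. CLK2 (0.32, adjusted p = 0.426) and SRPK1 (-0.13, adjusted p = 0.710) overlapped between groups. CLK3 and CLK4 each passed in all 6 fits with a compared library left out.

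The SR proteins, which bind exonic enhancers and recruit the splicing machinery, leaned the other way. SRSF6 (chromosome 20, 43457928 to 43464247) measured 271, 252 and 268 CPM in vehicle and 117, 123 and 116 CPM in FAC. The 3 FAC values were all below 125 CPM and nearly equal. SRSF6 fell by 1.15 on the log2 scale (SE 0.10, adjusted p = 1.91e-04).

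SRSF7 measured 244, 221 and 228 CPM in vehicle and 140.3, 134 and 144 CPM in FAC, also without overlap. It fell by 0.73 (SE 0.14, adjusted p = 0.0252). SRSF6 passed in all 6 fits with a library left out and SRSF7 in none of them (adjusted p from 0.0876 to 0.113).

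Of the 14 SR and TRA2 genes tested, those 2 fell, where 0.732% of all genes fell, and none rose. A further 8 lay lower without overlap and did not pass: SRSF1 (532 ± 41.8 to 364 ± 41.7 CPM, SD, n = 3), SRSF2, SRSF3 (547 ± 44.4 to 372 ± 50.2 CPM), SRSF5, SRSF8, SRSF10, TRA2A and TRA2B. Their log2 fold changes ran from -0.55 to -0.36. Such a lack of overlap on the lower side was found for 10 of 14 genes here and 12.4% of all genes. SRSF4 stood higher without overlap (172 ± 8.18 to 228 ± 17.1 CPM; 0.40, adjusted p = 0.346). The list had a median of -0.44, and its members summed to 3080.8 to 3390 CPM in vehicle and 2418 to 2704 CPM in FAC. Fitted to the 6 libraries alone, 7 of the 14 fell, where 192 genes fell in all, against 104 in the fit reported.

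**Figure D2:**
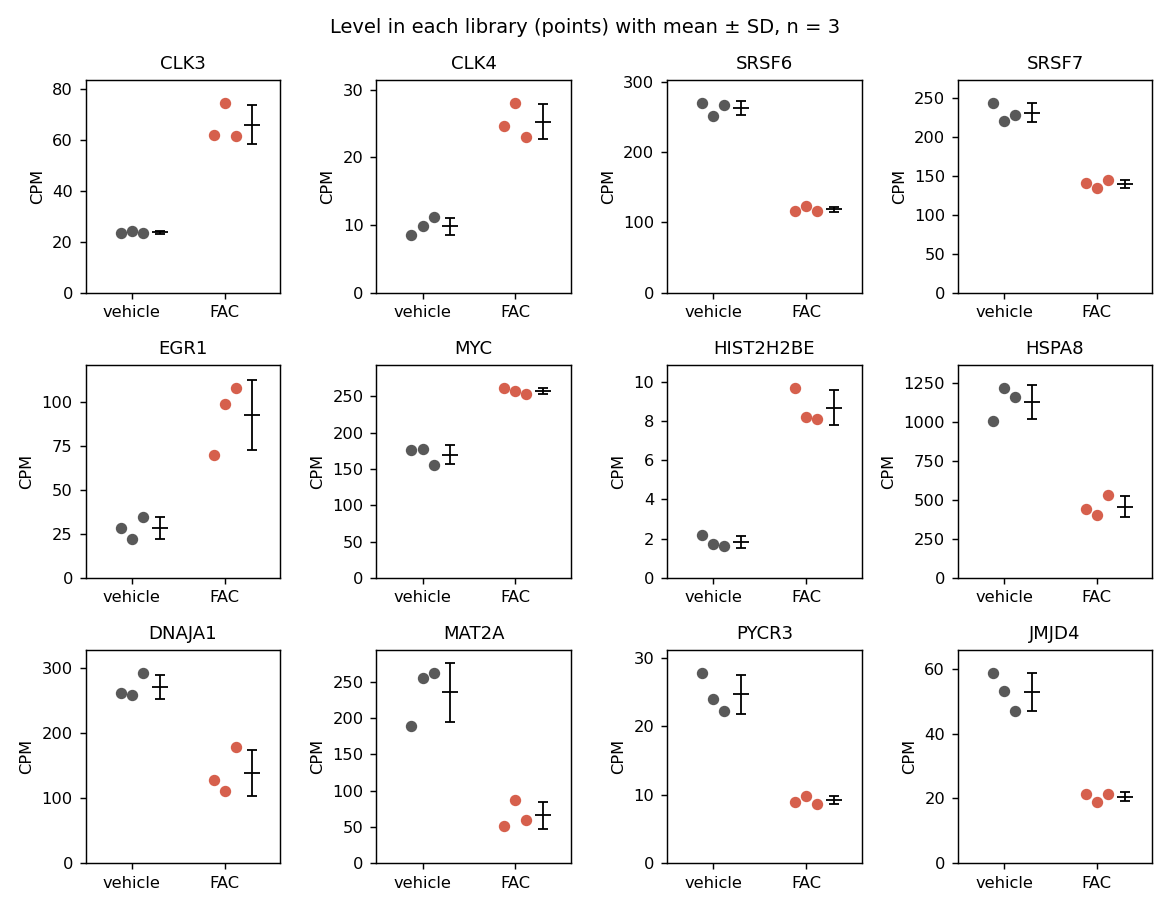
Levels of 12 genes in CPM (y axis, from 0) in the 3 vehicle (grey) and 3 FAC (red) libraries, 1 point per library, with the mean and SD at the side. The groups are separate in each panel, with CLK3, CLK4, EGR1, MYC and HIST2H2BE higher in FAC and the other 7 lower.

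The transcript table allowed the coding transcripts of these genes to be separated from those annotated for nonsense-mediated decay (NMD), the pathway that destroys mRNA with a premature stop. Estimated counts were summed by gene and annotated class and tested in the same way, an analysis added after the gene results were seen. Of 13127 genes, 31 (0.236%) changed in their coding transcripts, and 5 of 10501 (0.0476%) gene and class sums changed in the other classes. Coding transcripts took 89.9% to 90.2% of all counts in vehicle and 89.5% to 90.4% in FAC, and NMD transcripts 2.49% to 2.60% and 2.40% to 2.69%.

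Coding transcripts of SRSF6 measured 239, 199 and 216 CPM in vehicle and 82.9, 85.6 and 88.8 CPM in FAC. They fell by 1.35 (SE 0.16, adjusted p = 0.00924), and their share of the gene's classed counts was 76.8% to 84.1% in vehicle and 68.6% to 74.4% in FAC. Its NMD transcripts, at 45.1, 60.2 and 56.9 against 37.7, 39.2 and 30.6 CPM, did not pass (-0.59, adjusted p = 0.838). In SRSF3 the values of the coding and NMD classes pointed in opposite directions. Its coding transcripts measured 468, 369 and 402 CPM in vehicle and 247, 199 and 292 CPM in FAC (-0.75, adjusted p = 0.245), and its NMD transcripts 5.64, 6.603 and 9.50 against 14.8, 20.9 and 9.50 CPM (1.06, adjusted p = 0.492). Neither passed, and the third vehicle and the third FAC library did not differ in the NMD class. SRSF3 transcripts that keep an intron, more abundant than its NMD transcripts, pointed the same way as the coding ones. They measured 143, 138 and 154 against 118, 110 and 137 CPM and did not pass (-0.25, adjusted p = 0.713).

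Across the SR list, 11 of 14 coding sums were negative with a median of -0.50 and 7 of 12 NMD sums with a median of -0.05. In SRSF7 the coding share was 87.3% to 92.3% in vehicle and 72.9% to 84.4% in FAC.

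Coding transcripts of CLK1, CLK3 and CLK4 rose, and those of CLK2 overlapped between groups (22.1, 23.1 and 24.9 against 23.3, 22.9 and 25.7 CPM; 0.03, adjusted p = 1). Those of CLK3 rose from 19.6, 17.8 and 18.5 to 55.2, 63.1 and 55.2 CPM (1.63, SE 0.12, adjusted p = 6.13e-04). Those of CLK4 rose from 6.42, 6.36 and 7.37 to 21.9, 22.7 and 21.8 CPM (1.72, SE 0.16, adjusted p = 0.00407). Coding CLK1 transcripts passed here although the gene total had not, at 10.96, 10.5 and 9.90 against 23.6, 23.6 and 18.8 CPM (1.07, SE 0.14, adjusted p = 0.0133). NMD transcripts of CLK1, CLK3 and CLK4 ran from 0.555 to 8.68 CPM and did not pass.

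**Figure D3:**
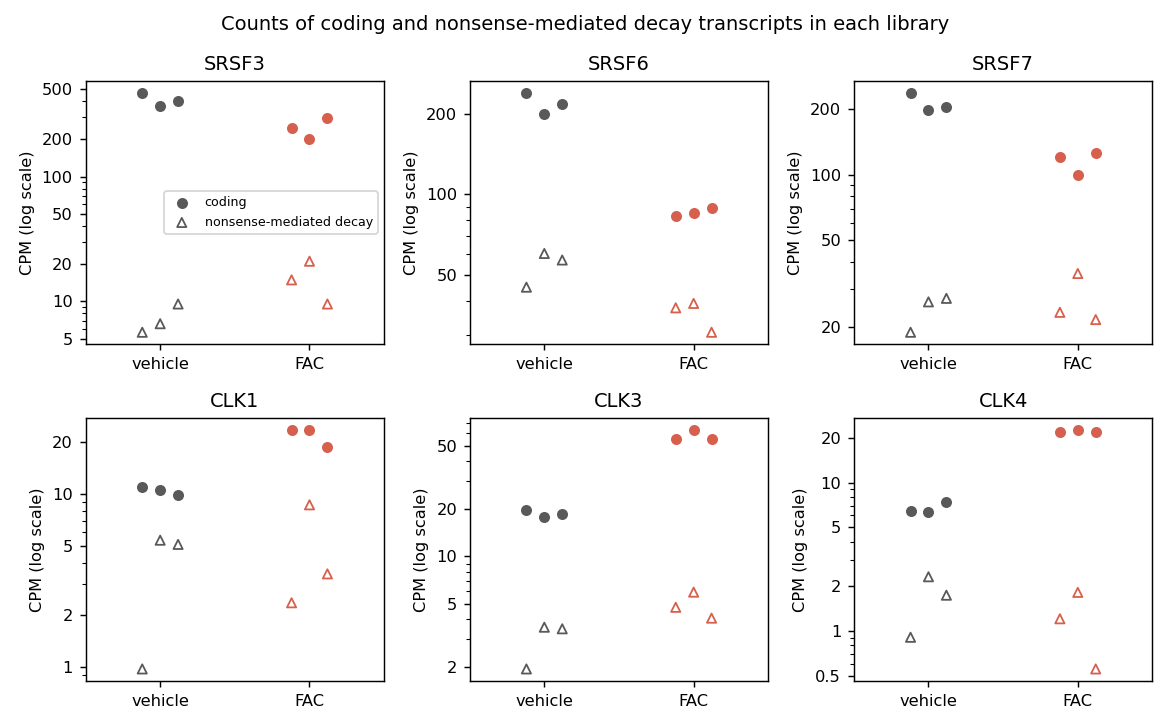
Counts of coding transcripts (filled circles) and NMD transcripts (open triangles) of 3 SR proteins and 3 kinases in CPM on a log axis, 1 symbol per library, vehicle in grey and FAC in red. Coding transcripts of SRSF3, SRSF6 and SRSF7 are lower in every FAC library and those of CLK1, CLK3 and CLK4 higher.

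Other RNA-binding genes centred near 0. Of 48 hnRNP and RBM genes, 2 fell, where 0.732% of all genes fell, and none rose, with a median of 0.07. None of 39 genes of the core spliceosome passed (28 hnRNP and RBM genes and 26 core genes were positive; smallest adjusted p among the core 0.230). RBM12 fell from 199.7, 226 and 228 to 122, 126 and 122 CPM (-0.82, SE 0.15, adjusted p = 0.0209). RBM10, an RNA-binding regulator of exon skipping, fell from 106, 114 and 109 to 72.4, 79.2 and 66.4 CPM (-0.60, SE 0.10, adjusted p = 0.0152). RSRC2, which carries an arginine and serine-rich stretch, rose from 66.8, 86.4 and 81.8 to 159, 198 and 193 CPM (1.23, SE 0.15, adjusted p = 0.00144). Most of its classed counts were NMD transcripts, which rose with it (43.4, 58.9 and 53.9 to 112, 126 and 134 CPM; adjusted p = 0.00677). With a library left out, RSRC2 passed in 6 of 6 fits, RBM10 in 2 (adjusted p 0.0352 to 0.0921) and RBM12 in 1 (0.0472 to 0.108).

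Immediate-early genes, which answer growth factors and stress within minutes, stood higher. EGR1, a zinc finger transcription factor at the head of that response, has in its promoter a pair of CArG boxes, the sites bound by serum response factor. The promoter is shown because EGR1 had the largest change among members that passed, with the CArG boxes in capitals (RefSeq, GRCh38.p14, from 250 bases before to 50 after the start).
EGR1 promoter (chr5:138465229-138465528, plus strand): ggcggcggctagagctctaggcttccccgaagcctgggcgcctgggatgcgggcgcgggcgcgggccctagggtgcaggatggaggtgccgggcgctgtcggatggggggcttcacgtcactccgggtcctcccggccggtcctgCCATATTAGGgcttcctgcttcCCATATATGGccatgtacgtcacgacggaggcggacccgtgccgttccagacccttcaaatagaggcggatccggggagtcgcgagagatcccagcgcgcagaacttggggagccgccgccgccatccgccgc
Both boxes were found by a search of both strands, and 1.29% of 27305 RefSeq promoters of the same length hold at least 1. Promoters were matched for fewer than 80% of the list, so no share is given for it.

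EGR1 measured 28.6, 21.9 and 34.6 CPM in vehicle and 70.1, 99.1 and 108 CPM in FAC. The lowest FAC library was above the highest vehicle library, and the FAC libraries were the more uneven. The log2 fold change was 1.71 (SE 0.24, adjusted p = 0.00514). Of 37 immediate-early genes tested, 4 rose, where 0.457% of all genes rose, and none fell. They were EGR1, TRIB1 (0.99, SE 0.20, adjusted p = 0.0317), KLF6 (0.76, SE 0.13, adjusted p = 0.0182) and MYC (0.60, SE 0.11, adjusted p = 0.0213). TRIB1 is a pseudokinase that guides protein degradation, KLF6 a zinc finger factor, and MYC the growth-promoting transcription factor. MYC was even within groups, at 176, 178 and 155 CPM against 262, 258 and 253 CPM.

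FOS, the partner of JUN in the AP-1 factor, measured 4.39, 2.84 and 5.12 CPM in vehicle and 8.65, 12.7 and 18.2 CPM in FAC. The groups were separate and the threshold was missed (1.68, SE 0.39, adjusted p = 0.0578). In all, 22 of the 37 stood higher without overlap and none lower, against 10% and 12.4% of all genes, and the median was 0.37. The spread over the list was wide, since ATF3 (0.10) and SRF (-0.09) overlapped. EGR1 passed in all 6 fits with a library left out, and TRIB1, KLF6 and MYC in none (adjusted p 0.0605 to 0.160). Fitted to the 6 libraries alone, 8 of 36 rose, where 159 genes rose in all, against 65 in the fit reported.

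Feedback genes of the ERK pathway, by contrast, gave a median of 0.02 over 22 genes, with 1 falling, where 0.732% of all genes fell. That gene was ETV1, an ETS transcription factor (6.36, 3.59 and 5.29 to 1.95, 2.47 and 2.57 CPM; -1.12, SE 0.24, adjusted p = 0.0460), which passed neither in the 6 libraries alone (0.0661) nor in any fit with a library left out (0.0539 to 0.190). Of 28 chemokine and NF-kB feedback genes, CXCL8 alone passed, where 1.19% of all genes passed, and the median was -0.05. Without overlap, 6 stood lower and 2 higher, against 12.4% and 10% of all genes. CXCL1 (-1.34), CXCL3 (-0.86) and TNF (-1.01) were among those lower and did not pass. CXCL8, the neutrophil-attracting interleukin 8, measured 7.72, 5.50 and 4.35 CPM in vehicle and 1.76, 1.84 and 0.955 CPM in FAC. It fell by 1.94 (SE 0.29, adjusted p = 0.0082) and passed in all 6 fits with a library left out.

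A few histone genes rose from low levels. Replication-dependent histone mRNAs normally end in a stem-loop in place of a poly-A tail, and poly-A selection then captures only forms that continue past it. The stem-loop of HIST2H2BE, the histone gene with the smallest adjusted p, is shown with its paired bases and loop in capitals (3′ UTR, GENCODE 29, GRCh38); its most abundant transcript runs 1729 bases beyond it.
HIST2H2BE stem-loop (chr1:149886182-149886209, minus strand): tccaaaGGCTCTTTTCAGAGCCacccac
HIST2H2BE measured 2.16, 1.74 and 1.597 CPM in vehicle and 9.69, 8.21 and 8.12 CPM in FAC. The groups were well apart, and HIST2H2BE rose by 2.24 on the log2 scale (SE 0.24, adjusted p = 7.73e-04).

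Of 77 histone genes in the table, 32 had enough counts to be tested, and 4 of these rose and none fell, where 0.457% of all genes rose. Because a gene can pass the filter on low counts through the group where it is high, as HIST1H2BE may, neither this count nor the median of 0.76 over the tested genes stands for the family. Besides HIST2H2BE those that rose were HIST2H4B (7.04, 4.46 and 2.81 to 15.4, 13.1 and 15.5 CPM; 1.63, SE 0.29, adjusted p = 0.0192), HIST1H2BN (1.26, adjusted p = 0.0469) and HIST1H2BE. HIST1H2BE was at or near the 3-count limit in vehicle (0.185, 0.289 and 0.110 CPM) and measured 1.37, 0.737 and 1.73 CPM in FAC (adjusted p = 0.0362). The neighbouring pseudogene HIST2H2BD, outside the list, rose as well (7.04, 6.37 and 5.84 to 14.1, 16.4 and 15.8 CPM; 1.27, SE 0.17, adjusted p = 0.00412).

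The variants expressed throughout the cell cycle, whose mRNAs are polyadenylated, differed little: H2AFZ had 0.07, H3F3A 0.19 and H3F3B -0.02, with adjusted p from 0.875 to 0.991. Histone genes have near-identical copies, so that reads may be shared between them and single members are uncertain. HIST2H2BE and HIST2H2BD passed in all 6 fits with a library left out, HIST2H4B in 1 (without the first vehicle library; 0.0125 to 0.0942) and HIST1H2BE and HIST1H2BN in none (0.0505 to 0.215). Summed over the tested members of the list, levels overlapped between groups (2521 to 2974 and 2554 to 3299 CPM), since the abundant variants outweigh the others.

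Cytosolic chaperones fold proteins and are induced by heat shock factor. The 3 chaperones that passed fell, and the 1 member of the list that rose was HSF2, a transcription factor. HSPA8, the constitutive HSP70 of the cytosol, and its partner DNAJA1 fell, and their promoters are shown because each holds heat shock elements. These are 3 alternating units, GAANNTTCNNGAA or TTCNNGAANNTTC, given in capitals (RefSeq, GRCh38.p14; both strands searched).
HSPA8 promoter (chr11:123062087-123062386, minus strand): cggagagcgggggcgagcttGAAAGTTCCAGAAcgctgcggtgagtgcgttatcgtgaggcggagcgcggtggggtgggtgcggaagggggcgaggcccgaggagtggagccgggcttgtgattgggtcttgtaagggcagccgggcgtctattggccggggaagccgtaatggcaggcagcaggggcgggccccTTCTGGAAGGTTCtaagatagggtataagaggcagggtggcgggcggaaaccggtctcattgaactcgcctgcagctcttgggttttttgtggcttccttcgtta
DNAJA1 promoter (chr9:33025023-33025322, plus strand): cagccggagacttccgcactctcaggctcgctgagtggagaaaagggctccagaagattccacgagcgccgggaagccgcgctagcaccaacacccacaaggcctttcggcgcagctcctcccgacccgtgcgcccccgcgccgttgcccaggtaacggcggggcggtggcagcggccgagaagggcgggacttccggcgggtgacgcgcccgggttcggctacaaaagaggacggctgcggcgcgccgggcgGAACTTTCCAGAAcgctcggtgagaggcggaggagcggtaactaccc
The element was present in 4 of the 30 chaperone promoters matched (13.3%; HSPA8, DNAJA1, DNAJB6 and CHORDC1) and in 0.487% of 27305 RefSeq promoters of the same length. DNAJB6 (0.01) and CHORDC1 (-0.16) did not pass.

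HSPA8, on chromosome 11 at 123057489 to 123063230, measured 1007, 1218 and 1161 CPM in vehicle and 438, 400.1 and 533 CPM in FAC. No FAC library reached the lowest vehicle library. It fell by 1.31 (SE 0.20, adjusted p = 0.0082), and no gene that fell was more abundant in vehicle. DNAJA1, a J-domain co-chaperone, measured 262, 259 and 293 CPM in vehicle and 128, 110.4 and 178 CPM in FAC (-0.97, SE 0.21, adjusted p = 0.0427).

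HSPA2, an HSP70 best known from testis, fell from 20.6, 14.4 and 11.2 to 7.67, 5.95 and 6.68 CPM (-1.18, SE 0.23, adjusted p = 0.0252). HSF2, a heat shock transcription factor, rose from 73.9, 68.4 and 73.4 to 97.8, 112 and 107 CPM (0.55, SE 0.09, adjusted p = 0.0151). Of 33 members 1 rose and 3 fell, against 0.457% and 0.732% of all genes, and the median was -0.05. Without overlap, 11 stood lower and 1 higher, against 12.4% and 10% of all genes. The stress-inducible HSPA1A (-0.65, adjusted p = 0.423) and HSPA1B (-0.70, adjusted p = 0.181), near-identical copies that share reads, and DNAJB1 (-0.69, adjusted p = 0.0981) were lower without overlap and did not pass. HSP90AA1 (0.19) and HSPH1 (-0.05) overlapped. HSPA8 lost its call without the third vehicle (adjusted p = 0.0513) or the first FAC library (0.0593), HSF2 passed in 2 of the 6 such fits (0.0443 to 0.0942), and HSPA2 and DNAJA1 in 1 each (0.0309 to 0.121 and 0.0482 to 0.182). No member of the unfolded protein response list of the endoplasmic reticulum passed (27 genes, median 0.05, smallest adjusted p = 0.160), and none of 37 ATF4 targets did (median -0.01, smallest adjusted p = 0.0760), though 1 fell in the 6 libraries alone.

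MAT2A makes S-adenosylmethionine, the methyl donor of the cell, and METTL16 methylates hairpins in its 3′ UTR to match mRNA to the supply. The letters TACAGANAA (N being A or G), the core of those hairpins, were found 6 times in the most abundant MAT2A transcript, more than in any other of 14016 genes. They are shown with 10 bases on either side, the core in capitals (3′ UTR, GENCODE 29, GRCh38, sense strand).
MAT2A site 1 (chr2:85543802-85543830, plus strand): tggcgtaggcTACAGAGAAgccttcaagc
MAT2A site 2 (chr2:85544589-85544617, plus strand): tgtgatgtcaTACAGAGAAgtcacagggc
MAT2A site 3 (chr2:85544774-85544802, plus strand): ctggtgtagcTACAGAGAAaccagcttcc
MAT2A site 4 (chr2:85544889-85544917, plus strand): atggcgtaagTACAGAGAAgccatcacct
MAT2A site 5 (chr2:85545004-85545032, plus strand): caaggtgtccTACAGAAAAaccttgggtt
MAT2A site 6 (chr2:85545112-85545140, plus strand): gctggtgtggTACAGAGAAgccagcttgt
At least 1 such core was present in 7.86% of genes, 14.3% of those that rose and 8% of those that fell.

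MAT2A (chromosome 2) measured 189, 255 and 263 CPM in vehicle and 51.3, 86.8 and 59.3 CPM in FAC. The groups did not overlap, and MAT2A fell by 1.84 (SE 0.21, adjusted p = 0.00121), more than any gene but TFRC and CXCL8 among those with a mean of at least 1 log2 CPM. It was the only one of 27 methionine and one-carbon genes to pass, and the list's median was 0.01. It passed in all 6 fits with a library left out.

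PYCR3, a reductase of the last step of proline synthesis, measured 27.8, 24.0 and 22.2 CPM in vehicle and 8.97, 9.79 and 8.65 CPM in FAC. Every FAC library was below 10 CPM and every vehicle library above 20 CPM. It fell by 1.43 (SE 0.13, adjusted p = 1.91e-04), passed in all 6 fits with a library left out, and was alone among 18 genes of proline and glutamate metabolism, whose median was 0.08. SLC38A9, the lysosomal arginine sensor, fell by 0.56 (33.9 ± 1.31 to 23.1 ± 0.844 CPM, SD, n = 3; adjusted p = 0.0381), the only one of 26 amino acid transporters. It passed in no fit with a library left out (0.116 to 0.144).

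Of 56 dioxygenases that use iron and 2-oxoglutarate, 4 fell, where 0.732% of all genes fell, and none rose. Their median was 0.01, the same as over all genes. JMJD4, which hydroxylates the translation termination factor eRF1, measured 58.8, 53.1 and 46.9 CPM in vehicle and 21.3, 18.8 and 21.4 CPM in FAC. The FAC libraries lay within 3 CPM of each other and far below vehicle. JMJD4 fell by 1.37 (SE 0.12, adjusted p = 1.91e-04) and passed in all 6 fits with a library left out.

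The other 3 changed less. RIOX2, a ribosomal oxygenase, fell from 49.5 ± 6.45 to 32.1 ± 2.58 CPM (SD, n = 3; -0.62, adjusted p = 0.0251). HIF1AN, the asparagine hydroxylase that restrains hypoxia-inducible factor, fell from 84.5 ± 6.88 to 57.7 ± 2.01 CPM (-0.55, adjusted p = 0.0448). ALKBH8, which modifies the wobble base of transfer RNA, fell from 24.0 ± 3.87 to 16.2 ± 0.796 CPM (-0.57, adjusted p = 0.0469). With a library left out RIOX2 passed in 1 of 6 fits and the other two in none (0.0365 to 0.215 over the 3 genes). The prolyl hydroxylases EGLN1 (-0.15), EGLN2 (-0.05) and EGLN3 (-0.15) overlapped between groups. Of 30 targets of hypoxia-inducible factor, 1 rose, BHLHE40, where 0.457% of all genes rose, and the median was 0.11. Without overlap, 4 stood higher and 3 lower, against 10% and 12.4% of all genes.

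TFRC, the receptor that imports transferrin-bound iron, carries the hairpins through which iron regulatory proteins protect its mRNA. They were searched on the sense strand as an unpaired C, 5 paired bases with at most 1 G-T pair, and the loop CAGNGN (the first N being A or T, the last any base but G). The most abundant TFRC transcript held 5, more than any other of 14016 genes, and 1.09% of genes held at least 1. They are shown with the loop in capitals (3′ UTR, GENCODE 29, GRCh38).
TFRC element 1 (chr3:196051029-196051057, minus strand): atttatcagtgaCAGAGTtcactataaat
TFRC element 2 (chr3:196050979-196051007, minus strand): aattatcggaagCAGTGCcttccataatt
TFRC element 3 (chr3:196050575-196050603, minus strand): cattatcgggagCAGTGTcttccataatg
TFRC element 4 (chr3:196050510-196050538, minus strand): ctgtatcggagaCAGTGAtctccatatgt
TFRC element 5 (chr3:196050463-196050491, minus strand): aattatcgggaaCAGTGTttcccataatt
Among the genes that fell, RIOX2 also held a match, and among those that rose HIST2H4B did. A match of letters is not a site.

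TFRC measured 113, 134 and 119 CPM in vehicle and 19.7, 22.1 and 16.8 CPM in FAC, the largest fall among genes with a mean of at least 1 log2 CPM (-2.64, SE 0.25, adjusted p = 2.32e-04). It was the only one of 24 genes of iron handling to pass, and the list's median was 0.05. In the 6 libraries alone, which gave 351 calls in all, 2 passed, with the iron exporter SLC40A1 the other (-1.17, adjusted p = 0.0316). The ferritin subunits FTH1 and FTL overlapped (387 ± 46.0 to 460.1 ± 71.7 and 377 ± 75.9 to 457 ± 102 CPM). Of 19 heme genes and 28 iron-sulfur assembly genes none passed (smallest adjusted p 0.0760 and 0.0686), and in the 6 libraries alone 0 and 2 did.

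**Figure D4:**
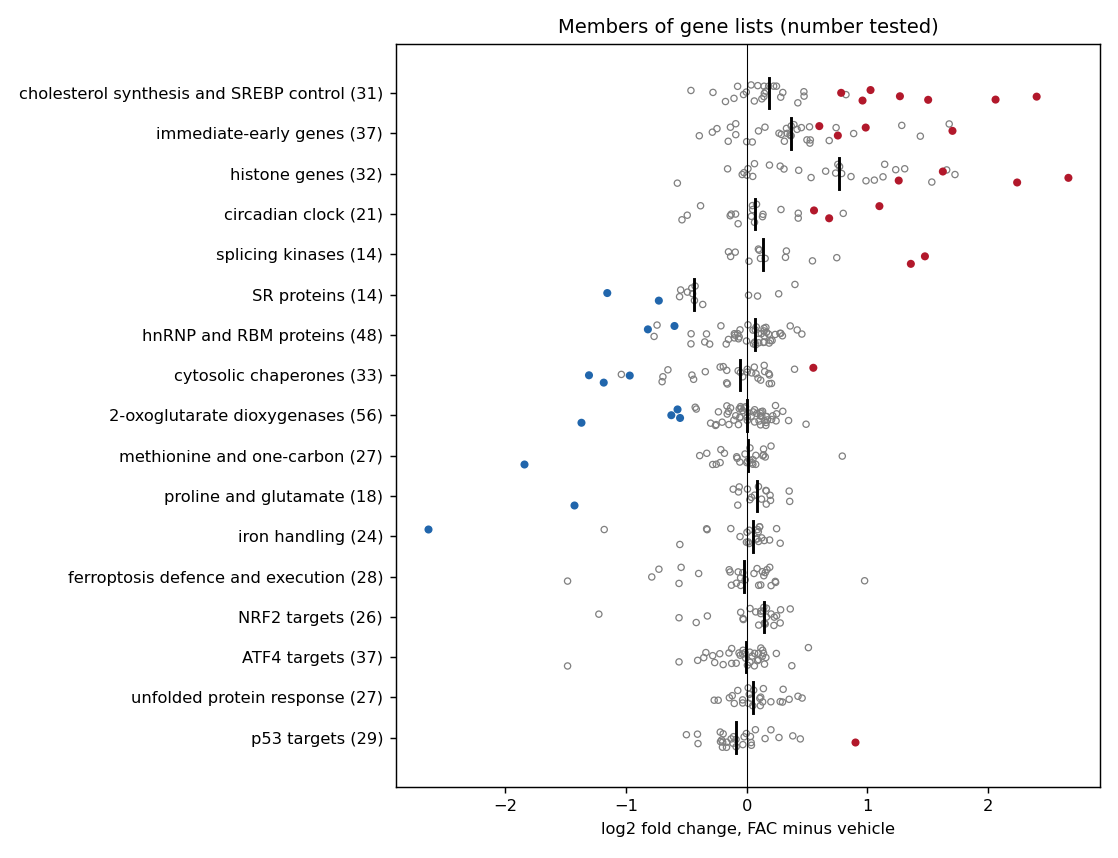
Log2 fold change of FAC minus vehicle (x axis) for the members of 17 gene lists, 1 circle per gene, filled red where it rose and blue where it fell, with the list's median as a bar and the number of genes tested in brackets. SR proteins centre below 0 at -0.44 and the tested histone genes at 0.76, whereas TFRC, MAT2A and PYCR3 are each the only filled circle of their list.

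Genes of cholesterol synthesis and its control rose in 7 of 31 cases, where 0.457% of all genes rose, and none fell, with a median of 0.18. Without overlap, 14 of the 31 stood higher and none lower, against 10% and 12.4% of all genes. INSIG1 retains the sterol sensor in the endoplasmic reticulum. INSIG1 measured 85.0, 59.7 and 92.6 CPM in vehicle and 359, 428 and 467 CPM in FAC (2.40, SE 0.20, adjusted p = 1.79e-04).

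The enzymes MSMO1 (1.504), IDI1 (1.27), SQLE (1.03) and HMGCS1 (0.78) also rose, each with an adjusted p of 0.0283 or less. With a library left out, MSMO1 and SQLE passed in 6 of 6 fits, IDI1 in 5, failing without the second vehicle library (0.0626), and HMGCS1 in 0. The rise was uneven along the pathway: MVK (-0.03), LSS (-0.10) and NSDHL (0.15) overlapped between groups. SREBF2 (0.18) and SREBF1 (-0.17), the transcription factors of the pathway, did too. None of 23 genes of fatty acid synthesis passed (median 0.07, smallest adjusted p = 0.333). Of 21 lipid droplet genes 1 fell, where 0.732% of all genes fell. PLIN2 fell from 16.2, 15.5 and 14.8 to 9.62, 8.63 and 10.1 CPM (-0.71, SE 0.12, adjusted p = 0.0146) but passed in no fit with a library left out (0.0518 to 0.0713).

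Clock genes gave 3 rises in 21 genes, where 0.457% of all genes rose, with a median of 0.07. BHLHE40, a repressor in the clock that is also induced by low oxygen, rose from 28.2, 20.8 and 36.1 to 63.5, 54.9 and 64.4 CPM (1.10, SE 0.18, adjusted p = 0.0125). NR1D1, the REV-ERB alpha receptor whose ligand is heme, rose from 8.34, 8.80 and 8.59 to 13.5, 13.2 and 14.7 CPM (0.68, SE 0.12, adjusted p = 0.0189). TEF, an output transcription factor of the clock, rose from 10.996, 12.3 and 12.4 to 17.8, 17.7 and 17.1 CPM (0.56, SE 0.12, adjusted p = 0.0392). Each had narrow groups apart from BHLHE40. With a library left out BHLHE40 passed in 3 of 6 fits and NR1D1 and TEF in none (0.0108 to 0.143 over the 3).

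Of 30 cyclins and inhibitors of their kinases, 1 rose, where 0.457% of all genes rose. CCNG2, an unusual cyclin of non-dividing cells, rose from 16.7, 17.4 and 17.9 to 28.2, 31.1 and 26.9 CPM (0.73, SE 0.11, adjusted p = 0.0082). It lost its call only without the second vehicle library (0.0539). None of 38 genes of DNA replication and 32 of mitosis passed (medians -0.05 and 0.06). BBC3, which encodes the death-promoting protein PUMA, rose from 26.3, 26.7 and 22.6 to 46.6, 48.4 and 45.8 CPM (0.90, SE 0.17, adjusted p = 0.0209). BCL2L2, which protects from death, fell from 22.0, 22.0 and 26.6 to 13.8, 15.3 and 14.3 CPM (-0.70, SE 0.13, adjusted p = 0.0209). They were the only ones of 27 BCL2 family and caspase genes to pass, where 1.19% of all genes passed. BBC3 was the only one of 29 p53 targets, whose median was -0.09. BBC3 passed in no fit with a library left out (0.0732 to 0.135) and BCL2L2 in 1 (0.0472 to 0.119).

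Many lists gave no call in edgeR's test. None of 28 genes of ferroptosis defence and execution passed (median -0.02, smallest adjusted p = 0.0582), nor of 26 NRF2 targets (0.14, 0.202), 22 metallothionein and zinc transporter genes (-0.02, 0.313), 47 genes of lysosome and autophagy (0.09, 0.132) or 14 polyamine genes (0.04, 0.0582). The 6 libraries alone, with 351 calls in all, gave 3 in the ferroptosis list. SAT1 was higher (0.99, adjusted p = 0.0212), and CHAC1 (-1.47, adjusted p = 0.0284) and CYB5R1 (-0.53, adjusted p = 0.0429) were lower. CHAC1 is also counted among the ATF4 targets. That fit gave 1 rise each in the lists of polyamines, where it was SAT1 again, and of lysosome and autophagy. It gave 0 calls among the NRF2 targets and the metallothionein and zinc transporter genes. Subunits of oxidative phosphorylation from nuclear genes had a median of 0.14 over 62, and cytosolic ribosomal proteins 0.19 over 83, with 82 positive; 7 of the 83 stood higher without overlap, a share below the 10% of all genes. Of 456 zinc finger genes named ZNF, ZNF143, an activator of many promoters, rose (0.66, adjusted p = 0.0362) and 5 fell, among them ZNF365 (-1.66, adjusted p = 0.0218), ZNF587B (-1.39), ZNF780B (-1.04) and ZNF583 (-0.94). That is 1.32% of them, near the 1.19% over all genes.

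Besides RSRC2 and HIST2H2BD, the largest rises among genes in no list with a mean of at least 1 log2 CPM were those of ZC3H6, a CCCH zinc finger gene (5.07, 7.12 and 4.63 to 18.9, 25.6 and 16.3 CPM; 1.85, SE 0.29, adjusted p = 0.00965), LNP1 (2.78, 2.49 and 2.15 to 6.63, 6.63 and 8.06 CPM; 1.52, adjusted p = 0.00562), THAP2 (1.31), AOC2 (1.30), CREBRF (1.25), PRDM10 (1.09), SDHAF4 (1.08) and MVP (1.07), with adjusted p from 0.00562 to 0.0414. CREBRF regulates the CREB3 transcription factor, SDHAF4 helps to assemble succinate dehydrogenase, and MVP is the main protein of the vault particle. KLHL24, an adaptor of cullin ubiquitin ligases, rose from 23.3, 19.4 and 22.6 to 40.1, 46.8 and 42.3 CPM (0.98, SE 0.11, adjusted p = 0.00121). KLHL24 and LNP1 passed in all 6 fits with a library left out, and ZC3H6 in all but that without the third vehicle library (0.0675). THAP2 passed in 4 of them, CREBRF in 2, PRDM10 in 1, and AOC2, SDHAF4 and MVP in 0 (0.0704 to 0.199 over these last 3). The chromatin reader BRD2, chosen after its values were seen as the most abundant gene that rose, went from 515, 624 and 641 to 945, 990.2 and 966 CPM (0.70, SE 0.12, adjusted p = 0.0151) and passed in 0 of 6 fits with a library left out. AC002310.5 and AC073610.3, both called, were at 0 in all vehicle libraries and at 0.650, 2.16 and 1.73 and at 1.04, 0.895 and 0.418 CPM in FAC, so that no fold is given. They can have passed the filter on low counts only through groups other than vehicle. With a library left out, AC002310.5 passed in 1 of 6 fits and AC073610.3 in 2.

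The largest falls outside the lists were those of FAM187A (3.40, 4.92 and 3.47 to 1.496, 0.842 and 1.55 CPM; -1.60, adjusted p = 0.0185) and FAM13B (37.8, 47.9 and 47.4 to 13.3, 22.1 and 11.4 CPM; -1.505, SE 0.26, adjusted p = 0.0154). SLC16A13, of the monocarboxylate transporter family, was very even (5.87, 5.79 and 5.84 to 2.21, 2.21 and 2.63 CPM; -1.31, adjusted p = 0.0110). EFR3A, which anchors a phosphatidylinositol kinase at the plasma membrane, fell by 1.07, METTL1, which methylates transfer RNA, by 1.07, CHMP6, of the ESCRT-III membrane-cutting complex, by 1.03, and GDPGP1 by 1.21, with adjusted p from 0.0082 to 0.0435. GTF2H2C_2 (-1.11, adjusted p = 0.00962) and NBPF1 (-0.998, adjusted p = 0.0182) belong to families of near-identical copies and are uncertain, as are the pseudogenes LINC00680 and AL109918.1. CHMP6 and AL109918.1 passed in all 6 fits with a library left out, FAM13B, SLC16A13 and METTL1 in 2, FAM187A and EFR3A in 1 and GDPGP1 in none (0.101 to 0.176).

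Among smaller falls, TOE1, a 3′ exonuclease of small nuclear RNAs, NCOA5, a nuclear receptor coactivator, UTP14A, a factor of the small ribosomal subunit, and DDX42, a helicase of the spliceosome, were chosen after their values were seen. TOE1 fell from 30.1, 32.1 and 32.1 to 14.4, 17.7 and 16.7 CPM (-0.95, SE 0.11, adjusted p = 0.00121). NCOA5 fell from 73.1, 72.4 and 76.9 to 38.2, 38.2 and 43.4 CPM (-0.89, SE 0.11, adjusted p = 0.00272), UTP14A by 0.79 (adjusted p = 0.00272) and DDX42 by 0.77 (adjusted p = 0.0082). The groups did not overlap in any of them, and with a library left out TOE1, NCOA5 and UTP14A passed in 6 of 6 fits and DDX42 in 3.

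The 6 oleic acid libraries share no sample with those above and show the same contrast in fed cells. The estimate of spread, the choice of genes to test and the scaling were common to both. All 169 genes had the same sign in oleic acid + FAC against oleic acid, and 132 of them (78.1%) passed there too, 47 higher and 85 lower, where 2.21% of all genes passed. They made up 42% of the 314 genes called in fed cells. CLK3 had 1.47 with oleic acid, CLK4 1.28, SRSF6 -1.10, HSPA8 -1.38, MAT2A -2.17, JMJD4 -1.18, PYCR3 -1.36 and HIST2H2BE 1.96, with adjusted p from 1.65e-04 to 0.00505. In the fit of those 6 libraries alone, 19 genes were called in all.

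The interaction of oleic acid and FAC was called for 0 genes by edgeR, DESeq2 and limma-voom, with 116, 107 and 125 genes at an unadjusted p under 0.05. Of the 169 genes, 5 were among the 116 in edgeR. PLIN2 had -0.71 without and -0.18 with oleic acid, TEF 0.56 and 0.12, and EGR1 1.71 and 1.00, each with an adjusted p of 1 for the difference. The other two were AC002310.5 and AC073610.3.

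**Figure D5:**
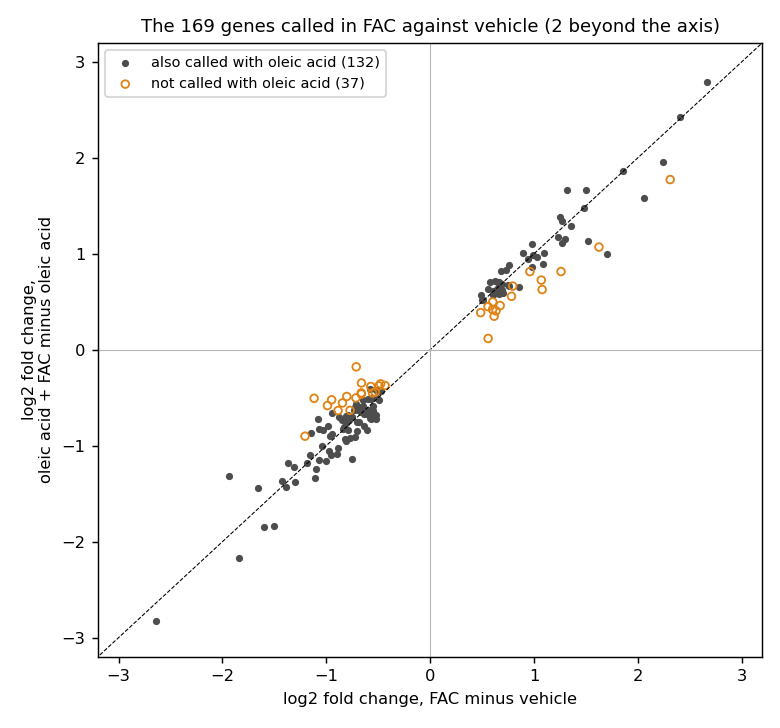
Log2 fold change of FAC against vehicle (x axis) and of oleic acid + FAC against oleic acid (y axis) for the 169 genes called in the former, with the line of equality dashed. Filled points (132) were called in both and open points (37) were not called with oleic acid; all have the same sign on both axes, and 2 genes at 0 in vehicle are beyond the axis.

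No marker of another cell type was called. VIM, the most abundant of the 12 genes of HEK293 identity tested, stood at 696 ± 128 and 815 ± 156 CPM (adjusted p = 0.802). Only markers with enough counts to be tested were summed. Those of fibroblasts, differentiated epithelium, endothelium and blood summed to 15.6 to 20.3, 11.4 to 20.01, 0.49 to 1.32 and 0.46 to 1.85 CPM in vehicle. In FAC these sums were 14.6 to 19.7, 13.1 to 18.6, 0.68 to 0.95 and 1.21 to 2.67 CPM, and those of each list overlapped between groups. Of the markers listed, 2 of 7 for fibroblasts, 4 of 6 for epithelium, 1 of 6 for endothelium, 2 of 7 for blood and 0 of 6 for hepatocytes had enough counts to be tested, and CLDN5, HBB, SERPINA1 and APOB were at 0 in all 6 libraries. COL1A1 was the highest of the fibroblast markers (15.6 ± 1.95 to 14.6 ± 2.83 CPM, SD, n = 3). Whether fewer cells of a kind or less RNA per cell lay behind a lower value cannot be told apart in bulk RNA.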

How the data were processed

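Total RNA with an integrity number of 10 was poly-A selected and made into Illumina TruSeq libraries, per the labels' protocols. The deposited tables hold estimated counts per gene symbol and per transcript from kallisto 0.46.1 (with sleuth 0.30.0 and build GRCh38.p12, per the submitters' processing notes); the authors' values were whole numbers, and strand is not given in the sources used here. Here, genes were kept by filterByExpr, scaled by trimmed mean of M values and fitted with edgeR 4.0.16 (quasi-likelihood F tests, two-sided, 1 mean per group, all 12 libraries) in R 4.3.3. DESeq2 1.42.0, limma 3.58.1 (voom) and other settings were alternatives. The steps were tested on simulated counts. Transcript IDs were matched to GENCODE 29 without their version. The genes named were the 25 largest rises and 25 largest falls that passed, had a mean of at least 1 log2 CPM and did not overlap, up to 5 passing members of each list, the given markers TFRC, INSIG1, MAT2A and CLK3, and, for every other cell type, its marker with the highest level; others are said to be chosen after seeing values. Members, lists and rule were chosen with earlier results of these data known. A list of noncoding RNA hosts had no gene tested and was not analysed here. Replicates of a group differed by more than counting noise. Some named genes are not reported here.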

Additional observations from a re-analysis of the deposited data

How the results depend on the processing

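The 169 calls of FAC against vehicle were 172 with limma-voom, 177 with DESeq2's size factors in edgeR and 160 with no filter on low counts. They were 527 with DESeq2, 351 in the fit of the compared libraries alone, 672 without the third oleic acid and oleic acid + FAC libraries, and 444 with the length trend removed. With the replicate number as a block they were 431, with all 169 among them, and 1109 with block and length trend together. Same-numbered vehicle and FAC libraries correlated at 0.243, 0.3 and -0.01 in their deviations from group means, and differently numbered ones at -0.342 to 0.121. The values of the first and second replicates were thus the highest. The fit reported did not take the numbers as pairs, and whether they mark pairs was not tested. In an alternative added after the gene results were seen, coding transcripts alone gave 31 genes. Leaving out 1 library gave 27 to 79. Of the 169, 163 were called again in the 6 libraries alone and all 169 without the third oleic acid and oleic acid + FAC libraries; the cause of these differences was not tested. For oleic acid + FAC against oleic acid, the 314 calls became 800 with DESeq2, 19 in the 6 libraries alone, 740 with the replicate block, 786 with the length trend removed and 1934 with both, and 55 to 449 with 1 library left out. The interaction gave 0 calls under every alternative run, and it could not be had from the libraries of 1 comparison alone. In FAC against vehicle, no gene named by rule reversed sign where it was called in either fit. Other genes were not checked for this. The uncalled markers EPCAM and COL1A1 changed sign in some fits with a library left out (EPCAM 0.06 in the fit reported, -0.12 to 0.39 in these). Under the 9 alternatives that left out no compared library, ETV1 passed in 6, ALKBH8 in 5, HIST1H2BN in 7 and HIF1AN, SLC38A9 and TEF in 8, and every other called gene named by rule passed in all it could be fitted in. Depth limits genes near the 3-count floor, such as HIST1H2BE.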
